A study of Mus musculus with 16 samples.

Results

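The effect of losing Akt2 in brown fat depended on the temperature at which the mice were housed. This dependence is measured by an interaction: the response to 22 °C in knockout minus that in wild type. It equals the knockout effect at 22 °C minus that at 30 °C. All 16 of the 16 libraries entered it, 4 from each of the 4 groups. The tissue was interscapular brown fat of C57BL/6J mice, kept from 9 to 13 weeks of age at 30 °C, which is thermoneutral for mice, or at 22 °C. Wild types (WT) were littermates of the knockouts (KO), in which a Cre recombinase fused to an estrogen receptor and driven from the Ucp1 promoter (UCP1-CreER in the labels) removed Akt2. By this design the Cre acts in cells that use the Ucp1 promoter, and other cells of the tissue would keep Akt2. Where it acted was not measured, and whole-tissue counts cannot assign the Akt2 reads left in KO to a cell type. The time and agent of Cre activation, and whether the littermates carried the Cre or received the agent, are not stated in the sources used here. The labels number the samples within a group without naming animals, so the p-values below reflect the spread of these samples, which may be technical.

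AKT2 is a serine-threonine kinase activated by the insulin receptor through phosphatidylinositol 3-kinase. In fat and liver, insulin signalling through AKT promotes glucose uptake, glycogen storage and the making of fatty acids from glucose (de novo lipogenesis). Brown fat burns fatty acids and glucose to make heat through the uncoupling protein UCP1, and it synthesises and oxidises fatty acids at the same time when it is active in the cold. Sympathetic nerves drive this activity through adrenergic receptors and cyclic AMP. The design asks which parts of the response to a cooler temperature need AKT2.

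The knockout was visible in the targeted gene, with no overlap between KO and WT. On GRCm38, Akt2 (ENSMUSG00000004056, chromosome 7, 27591552 to 27640826, plus strand) had levels of 196, 192, 221 and 205 CPM in WT at 30 °C, 81, 66.2, 74.4 and 56.2 CPM in KO at 30 °C, 216, 261, 224 and 226 CPM in WT at 22 °C and 76.3, 85, 89.3 and 78.2 CPM in KO at 22 °C, where CPM stands for read counts relative to library size after scaling by trimmed-mean (TMM) factors. Its interaction was 0.06 (log2) and did not pass (95% interval -0.25 to 0.37, adjusted p = 0.848 by edgeR's quasi-likelihood test). All 10 markers of brown adipocytes were detected in every library, with Ucp1 at 1412 to 8756 CPM and Lhx8, the lowest apart from Elovl3, at 1.45 to 8.97 CPM. Elovl3 was at 0.968 to 215.6 CPM. Library totals were 12751528 to 23866743 counts. In KO library 1 at 22 °C, 0.742% of the counts were on 16 skeletal muscle markers, against 0.00671% to 0.0819% in the other 3 of its group. Over 0.1% was also found in WT libraries 2 and 4 and KO libraries 1 and 2 at 30 °C, and in no WT library at 22 °C. The clock state also moved with the groups. The log2 level of Dbp minus that of Arntl was -3.29 to -2.12 in KO at 22 °C and -1.33 to 1.74 in the other 12 libraries. Clock state and the KO group at 22 °C therefore cannot be told apart in this design. In whole tissue, fewer cells of a type and less RNA per cell cannot be told apart either.

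Far more genes were called for the KO effect at 22 °C than at 30 °C. Of 14103 genes tested, the interaction was called for 433, or 3.07% (adjusted p under 0.05). In 329 of them (2.33%) the response to 22 °C was less upward in KO than in WT, and in 104 (0.737%) it was more upward. An unadjusted p under 0.05 was reached by 2927 genes. The KO effect itself was called for 6 genes (0.0425%) at 30 °C and for 2457 (17.4%) at 22 °C, with 7.44% higher and 9.98% lower in KO. None of the 433 was among the 6, and 426 were among the 2457. These comparisons share libraries, so the overlaps are descriptions. The 6 genes called at 30 °C included Akt2 and its processed copy Akt2-ps, which can share reads, and Ucp2, Mreg, Kcnk2 and Elmod2. Over all genes the median interaction was 0.007 (log2).

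Each called gene was sorted by its responses in the 2 genotypes. The response to 22 °C was called for 5385 genes in WT (38.2%), with 20.4% higher and 17.8% lower at 22 °C, and for 3761 in KO (26.7%), with 13.7% higher and 13% lower. The largest class, 302 of the 433, held WT responses that were reduced in KO. In 249 of these WT levels were higher at 22 °C, with a median log2 response of 0.95 in WT and 0.15 in KO. In the other 53 WT levels were lower at 22 °C, with a median of -0.83 in WT and 0.07 in KO. The KO response was not called at all for 214 of the 302, and for 88 it was called in the same direction as in WT. In 35 genes the response was reversed, with a call in each genotype and opposite signs. In 88 genes the response was gained, with a call only in KO, and in 8 it was enlarged in KO. A kept response was called in both genotypes in the same direction, with no interaction call and with the 95% interval of the interaction inside -1 to 1. There were 1861 such genes (13.2% of those tested), 1054 higher and 807 lower at 22 °C. The median response of the 1054 was 0.62 in WT and 0.45 in KO, and that of the 807 was -0.68 and -0.64. These medians are smaller in size than the bound of 1, so a kept response can still be smaller in KO. They made up 77.6% of the 2397 genes called in both genotypes in the same direction. The interaction remains unresolved for many others: 2739 genes were called in WT alone and 1241 in KO alone without an interaction call.

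**Figure D1:**
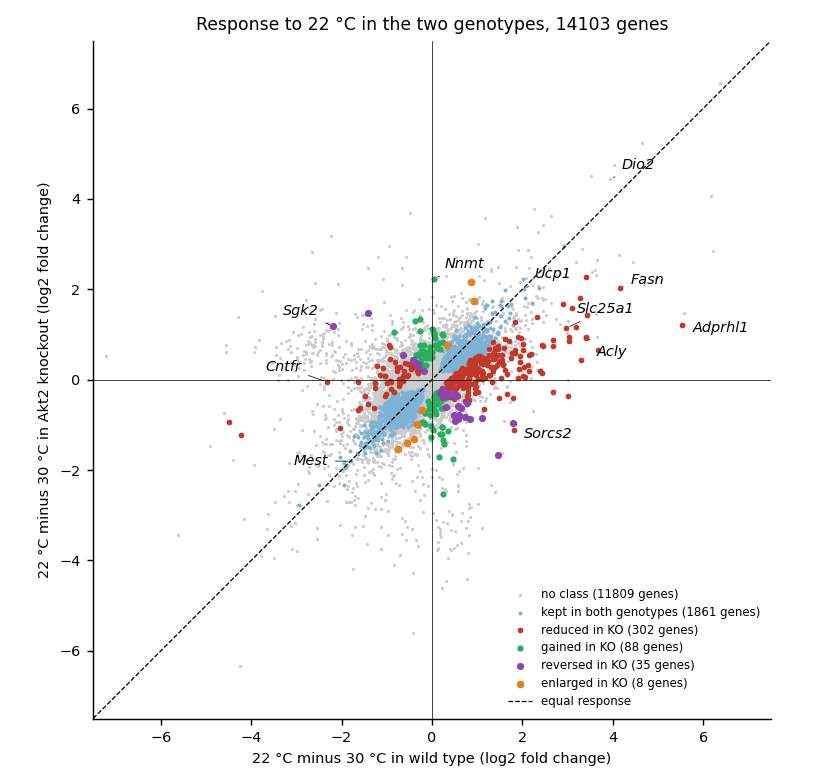
Response to 22 °C (log2 fold change, 22 °C minus 30 °C) in WT on the x axis and in KO on the y axis for 14103 genes, 1 point a gene, coloured by class; 1 gene lies outside the axes. The 302 reduced genes lie mostly between the dashed line of equal response and the horizontal zero line, while kept genes such as Ucp1 and Mest follow the dashed line.

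The reduced class was led by genes that make fatty acids. Of the 16 genes of de novo fatty acid synthesis, 12 were called with a less upward response in KO (75% of the list, against 2.33% of all genes in that direction) and none with a more upward one. Of the 12, 11 were reduced and 1, Mid1ip1, was gained as a decrease. All 16 estimates were negative, with a median interaction of -1.42. The median response was 1.84 in WT, where 15 rose, and 0.62 in KO, where 10 rose and 1 fell. The kept members numbered 2, among them Mlycd, which encodes malonyl-CoA decarboxylase, the enzyme that breaks down the product of acetyl-CoA carboxylase (response 0.84 in WT and 0.78 in KO). The list is a pathway chosen with earlier results of these data known. Its share of all counts was 0.931%, 0.992%, 1.34% and 0.83% in WT and 1.13%, 0.909%, 0.847% and 0.938% in KO at 30 °C. At 22 °C it was 5.35%, 5.1%, 4.87% and 5.66% in WT and 1.4%, 1.43%, 1.56% and 1.45% in KO. The shares at 30 °C overlapped, and those at 22 °C did not.

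The 250 bases before the start of transcription are shown for 3 called members, the citrate carrier Slc25a1 (chr16:17928220-17928469, minus strand), the lipid-droplet protein Pnpla3 (chr15:84167566-84167815, plus strand) and fatty acid synthase Fasn (chr11:120824548-120824797, minus strand), as examples of members that moved together. The sequences are from RefSeq on GRCm38.p6. Capitals mark CACGTG (the E-box core, the kind of site that lipogenic factors can bind) and CCAAT, both on either strand, so CCAAT also appears as ATTGG. In Fasn, 2 of the 3 CCAAT matches overlap. Acly, which moved in the same way, had neither motif in its 250 bases. The 250 bases for Acaca (chr11:84195188-84195437) also had neither. They lie inside the gene, which starts at 84129672 on the plus strand, so they do not describe that start. Acss2 and Thrsp had neither in the 155 and 70 bases free of exons. The 3 shown therefore do not stand for all called members.
Slc25a1: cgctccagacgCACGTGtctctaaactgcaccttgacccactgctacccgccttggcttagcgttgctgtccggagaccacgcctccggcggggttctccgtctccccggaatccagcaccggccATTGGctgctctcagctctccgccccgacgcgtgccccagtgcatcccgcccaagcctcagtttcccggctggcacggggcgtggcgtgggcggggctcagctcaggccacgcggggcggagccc
Pnpla3: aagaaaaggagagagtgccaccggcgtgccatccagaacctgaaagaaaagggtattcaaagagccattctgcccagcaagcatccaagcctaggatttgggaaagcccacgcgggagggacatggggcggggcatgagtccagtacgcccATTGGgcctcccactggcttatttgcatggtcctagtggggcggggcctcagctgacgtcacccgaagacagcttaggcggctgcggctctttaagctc
Fasn: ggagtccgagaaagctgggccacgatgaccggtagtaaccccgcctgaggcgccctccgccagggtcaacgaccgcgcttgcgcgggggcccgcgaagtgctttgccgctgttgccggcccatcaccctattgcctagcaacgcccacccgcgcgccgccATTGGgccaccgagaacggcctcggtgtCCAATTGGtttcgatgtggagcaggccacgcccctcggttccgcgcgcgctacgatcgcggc
Windows from 250 bases before to 50 after the start could be matched for 10699 of the 14103 genes tested, with 13661 windows. CCAAT was in 37.1% of all windows, 46.0% of those of the 249 genes whose rise was reduced in KO, and 35.9% of those of kept genes that rose. Among the 23 called members of the fatty acid and cholesterol lists, 19 were matched, and 16 of their 24 windows held CCAAT (66.7%). CACGTG was in 9.7%, 10.1%, 11.7% and 12.5% of the same 4 sets. TCACNCCAC, a form of the sterol regulatory element, was in 1.13% of all windows and in none of those 24. Matches are letters in these windows and were given no test.

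Citrate export and acetyl-CoA supply come first in the pathway. Slc25a1 (ENSMUSG00000003528, chromosome 16, 17925223 to 17928219, minus strand), which moves citrate out of the mitochondrion, was at 139, 140.3, 166 and 139.9 CPM in WT at 30 °C, 160.1, 129.8, 126 and 125 CPM in KO at 30 °C, 1235, 1339, 1008 and 1003 CPM in WT at 22 °C and 343, 278, 325 and 249 CPM in KO at 22 °C. The 4 WT libraries at 22 °C stood above all others, and the 4 KO libraries at 22 °C lay between them and the libraries at 30 °C. The response was 2.97 in WT and 1.14 in KO, an interaction of -1.83 (SE 0.176, adjusted p = 4.24e-05). Acss2, which makes acetyl-CoA from acetate, was at 95, 128, 162 and 109 CPM in WT at 30 °C, 125, 104, 97.5 and 103 CPM in KO at 30 °C, 943, 1066, 792 and 1230.4 CPM in WT at 22 °C and 241, 179.6, 199.9 and 155 CPM in KO at 22 °C. KO libraries 1 to 3 at 22 °C were above every library at 30 °C, and KO library 4 was below WT library 3 at 30 °C. The responses were 3.03 and 0.85, with an interaction of -2.18 (SE 0.243, adjusted p = 0.000186). Acly, ATP citrate lyase, rose in both genotypes, by 3.40 in WT and 0.93 in KO. Its interaction of -2.47 (SE 0.415) was the most negative of the list.

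The committed steps showed the same order of groups. Acaca, acetyl-CoA carboxylase 1, was at 101, 157, 217 and 116 CPM in WT at 30 °C, 148, 106, 112 and 113 CPM in KO at 30 °C, 1355, 1346, 1237 and 1444 CPM in WT at 22 °C and 274, 265, 271 and 256 CPM in KO at 22 °C. The groups at 22 °C were separated by a wide gap, with KO libraries at 256 to 274 CPM and WT libraries at 1237 to 1444 CPM. The interaction was -2.03 (SE 0.253, adjusted p = 0.000429), and the KO response of 1.16 was itself called. Fasn, fatty acid synthase, was at 839, 1628, 3414 and 1062 CPM in WT at 30 °C, 1467, 782, 645 and 1059.6 CPM in KO at 30 °C, 31829, 28286, 28708 and 35529.6 CPM in WT at 22 °C and 4323, 3734, 4517 and 3626 CPM in KO at 22 °C. WT library 3 at 30 °C was nearly as high as the lowest KO library at 22 °C. The interaction of -2.13 had an SE of 0.513 and an adjusted p of 0.0414, and the call was lost in 14 of the 16 fits with 1 library left out, where its estimates were -2.70 to -1.87, and in 4 of the 10 other settings, among them the one without the 5 libraries over 0.1% skeletal muscle counts (-1.65, adjusted p = 0.389). Thrsp, a nuclear protein that goes with lipogenesis, was at 4041 to 6465 CPM in WT at 22 °C and 1314 to 1638 CPM in KO. At 30 °C it was at 1080.3 to 1318 and 1091 to 1674 CPM. Its KO response was 0.08, against 2.02 in WT (interaction -1.94, adjusted p = 0.000186).

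The smallest p of all genes was that of Pnpla3 (ENSMUSG00000041653, chromosome 15, 84167837 to 84187236, plus strand), which encodes a lipid-droplet acyl hydrolase whose expression follows sugar and insulin. Its levels were 288, 289, 322 and 242 CPM in WT at 30 °C, 293, 235, 260.0 and 199 CPM in KO at 30 °C, 945, 865, 906 and 902 CPM in WT at 22 °C and 215, 191, 172 and 216 CPM in KO at 22 °C. In KO the levels at 22 °C reached no higher than those at 30 °C, and the ranges overlapped. The response was 1.66 in WT and -0.31 in KO, and the interaction was -1.98 (SE 0.163, adjusted p = 1.70e-05). Under all 26 alternative settings it stayed called. Mid1ip1, a partner of acetyl-CoA carboxylase and named after its values were seen, was gained: its response was 0.22 in WT and -1.04 in KO (interaction -1.26, adjusted p = 0.0146). Over the whole list, 9 to 12 members were called with 1 library left out, 6 without the 5 libraries over 0.1% skeletal muscle counts and 5 with the clock covariate.

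**Figure D2:**
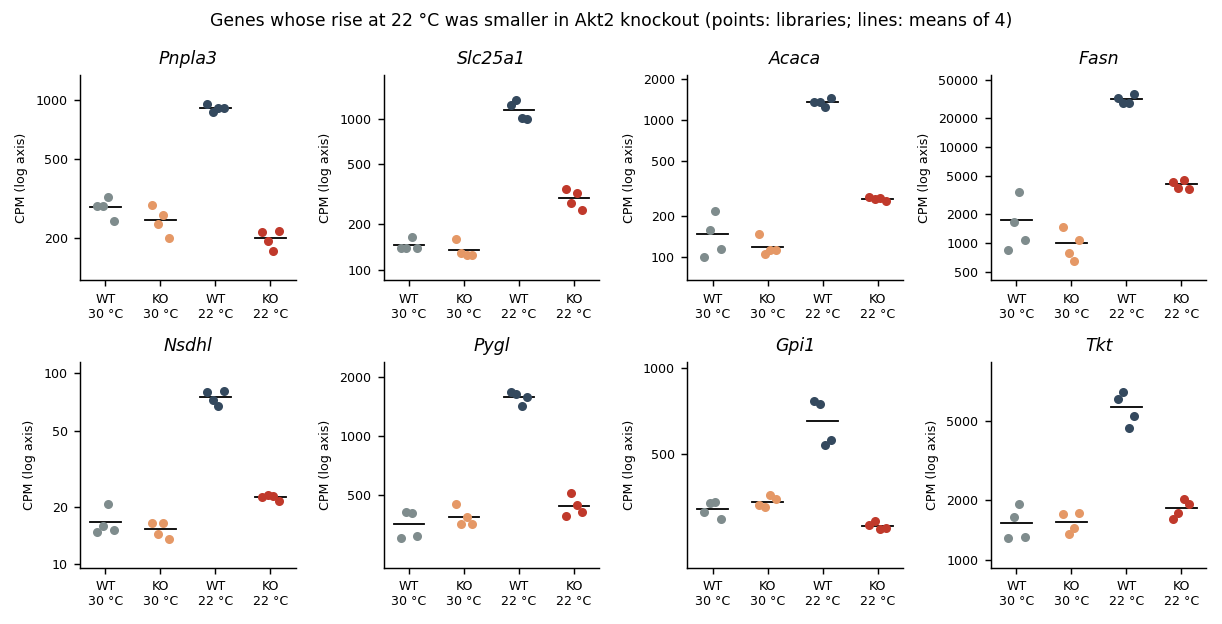
Levels of 8 genes in each library (CPM, log axis; points are libraries, lines are means of 4), by genotype and temperature. In each panel the 4 WT libraries at 22 °C stand above all 12 others; for Pnpla3, Pygl and Tkt the KO libraries at 22 °C overlap those at 30 °C.

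The regulators of lipogenesis Mlxipl and Srebf1 did not pass the interaction test, but both were called lower in KO at 22 °C. Mlxipl, which encodes the sugar-sensing factor ChREBP, was at 533 to 849 CPM in WT and 427 to 472 CPM in KO at 22 °C, and at 323 to 430.5 CPM over the 8 libraries at 30 °C. Its interaction was -0.56 (95% interval -0.94 to -0.19, adjusted p = 0.0904). Srebf1, which encodes SREBP1, was at 301, 239.8, 339 and 277 CPM in WT at 30 °C, 432, 300.3, 255 and 202 CPM in KO at 30 °C, 311, 446, 540.3 and 449 CPM in WT at 22 °C and 258, 212, 260.3 and 256 CPM in KO at 22 °C. The ranges overlapped at 30 °C and were apart at 22 °C. Its interaction was -0.86 (95% interval -1.46 to -0.26, adjusted p = 0.104). Both intervals lie below 0. The KO effects at 22 °C were -0.65 for Mlxipl (adjusted p = 0.00263) and -0.82 for Srebf1 (adjusted p = 0.0119, both by edgeR). Their responses were 0.85 and 0.59 in WT, both called, and 0.29 and -0.27 in KO, neither called. The lower bounds of the interaction intervals are less negative than the interactions of Pnpla3, Slc25a1 and Acaca. The Srebf1 interval still overlaps that of Slc25a1 (-2.20 to -1.45) and holds the interaction of the called gene Lss (-1.23). Counts by gene do not separate the transcripts of Mlxipl or Srebf1. None of the 13 tested genes of the list of ChREBP, SREBP1 and sugar-responsive targets was called in the interaction, which is near the 3.07% of all genes called.

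Fatty acid elongation was split. Of 16 elongation and desaturation genes tested, 3 were called with a less upward response in KO (18.8%). Elovl6, which elongates palmitate, rose in both genotypes, by 3.40 in WT and 2.28 in KO. At 22 °C its levels were 1555, 1046, 1007 and 1362 CPM in WT and 403, 499, 524 and 527 CPM in KO. Every KO library there was above the 8 libraries at 30 °C and below every WT library at 22 °C. The interaction of -1.12 had an adjusted p of 0.0213, and it lost its call without KO library 1 at 30 °C (adjusted p = 0.0561), with the replicate number as a block (0.0574), without the 5 libraries over 0.1% skeletal muscle counts (0.316) and with the clock covariate (0.42). Tecr, the reductase of the elongation cycle, had a response of 0.95 in WT and -0.04 in KO (interaction -0.99, adjusted p = 0.000283). Hsd17b12, the ketoacyl reductase of the same cycle, had responses of 1.83 and 1.27, with an interaction of -0.57. Its call held in 10 of the 16 fits with 1 library left out. Among genes of fatty acid activation, Acsl5, a long-chain acyl-CoA synthetase, had responses of 3.42 in WT and 1.43 in KO (interaction -1.99, adjusted p = 0.00184). In the fatty acid oxidation list 2 of 25 genes were called (8%, against 3.07% of all genes), both less upward in KO, and 10 were kept. Its median response was 0.71 in WT and 0.42 in KO. Acot11, a thermogenesis-linked acyl-CoA thioesterase of that list, had responses of 3.04 in WT and 0.95 in KO (interaction -2.09). Elovl3, named after its values were seen, rose by 6.17 and 4.06, and its interaction of -2.11 was too uncertain to call (SE 0.86, adjusted p = 0.187).

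Cholesterol synthesis genes were called at several downstream steps. Of 25 genes tested, 11 had a less upward response in KO (44%) and none a more upward one, with a median interaction of -0.88. In WT 19 rose and 1 fell (median 0.79), and in KO 5 rose and 2 fell (median 0.08). Nsdhl (ENSMUSG00000031349, chromosome X, 72918557 to 72958514, plus strand), which takes part in removing methyl groups from sterols, was at 14.7, 15.9, 20.6 and 15 CPM in WT at 30 °C, 16.5, 14.3, 16.5 and 13.6 CPM in KO at 30 °C, 80.3, 72.7, 67.6 and 81 CPM in WT at 22 °C and 22.5, 23.1, 22.8 and 21.4 CPM in KO at 22 °C. KO libraries at 22 °C were slightly above all libraries at 30 °C and far below every WT library at 22 °C. The responses were 2.19 and 0.56, and the interaction was -1.63 (SE 0.151, adjusted p = 3.40e-05). Lss, lanosterol synthase, had levels at 22 °C of 76.2, 72.9, 66.1 and 91.4 CPM in WT and 34, 27.8, 28.2 and 29.7 CPM in KO, with an interaction of -1.23 (adjusted p = 0.000651). The mevalonate-to-farnesyl steps moved with them. Pmvk, phosphomevalonate kinase, had responses of 2.46 and 0.75 (interaction -1.72), and Fdps, farnesyl diphosphate synthase, 1.94 and 0.40 (interaction -1.54). Hmgcs1, an enzyme near the entry of the pathway, named after its values were seen, was kept, with responses of 0.63 and 0.76. With 1 library left out 7 to 13 members were called, against 3 without the 5 libraries over 0.1% skeletal muscle counts and 4 with the clock covariate.

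The pentose phosphate pathway, which supplies NADPH for lipid synthesis, was called for 4 of 7 genes, all less upward in KO, and all 7 estimates were negative (median -0.92). The median response was 1.45 in WT and 0.54 in KO. Tkt, transketolase (ENSMUSG00000021957, chromosome 14, 30548359 to 30574720, plus strand), was at 1287, 1630.5, 1910.1 and 1302 CPM in WT at 30 °C, 1697, 1351, 1449.9 and 1709.8 CPM in KO at 30 °C, 6453, 7031, 4628 and 5305 CPM in WT at 22 °C and 1596, 1725, 2029 and 1905 CPM in KO at 22 °C. In KO the ranges at the 2 temperatures overlapped, and every WT library at 22 °C stood above all others. The interaction was -1.71 (SE 0.209, adjusted p = 0.000375). The oxidative enzymes Pgd and G6pdx rose in both genotypes, Pgd by 2.69 and 0.88 and G6pdx by 1.46 and 0.54. Their interactions were -1.80 and -0.91. That of Taldo1, transaldolase, was -1.18. All 4 calls held with any 1 library left out. None held with the clock covariate, and 1 held without the 5 libraries over 0.1% skeletal muscle counts.

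Glycolysis and glycogen genes were also called. In glucose uptake and glycolysis, 8 of 20 genes were called with a less upward response in KO (40.0%). The median response was 0.70 in WT and 0.15 in KO. Gpi1, glucose-6-phosphate isomerase (ENSMUSG00000036427, chromosome 7, 34201330 to 34230336, minus strand), was at 314, 336, 341 and 296 CPM in WT at 30 °C, 331, 326, 358 and 347 CPM in KO at 30 °C, 767, 747, 539 and 558 CPM in WT at 22 °C and 282, 291, 274 and 275 CPM in KO at 22 °C. The 4 KO libraries at 22 °C were the lowest of all 16. The response was 1.02 in WT and -0.28 in KO, the latter not called, and the interaction was -1.30 (SE 0.148, adjusted p = 0.000186). Pkm, pyruvate kinase, had 0.95 and -0.19 (interaction -1.15). Eno1 and Aldoa, which have processed copies and may share reads with them, had interactions of -1.41 and -1.26.

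In glycogen metabolism, 6 of 16 genes were called with a less upward response in KO (37.5%). Pygl, the liver form of glycogen phosphorylase (ENSMUSG00000021069, chromosome 12, 70190811 to 70231488, minus strand), was at 303, 411, 406 and 312 CPM in WT at 30 °C, 449.6, 358, 387 and 358 CPM in KO at 30 °C, 1689.5, 1641, 1429 and 1589 CPM in WT at 22 °C and 393, 516, 446 and 411 CPM in KO at 22 °C. Every WT library at 22 °C was above all 12 others, and KO levels overlapped between temperatures. The response was 2.15 in WT and 0.19 in KO (interaction -1.96, SE 0.17, adjusted p = 1.74e-05). The branching enzyme Gbe1 had responses of 1.18 and 0.04, and Ugp2, which makes UDP-glucose, 1.10 and 0.09. Ppp1r3b, which brings a phosphatase to glycogen, was reversed. Its levels were 223, 240.1, 318 and 199.8 CPM in WT at 30 °C, 442, 289, 258 and 224 CPM in KO at 30 °C, 669, 429.7, 468 and 535 CPM in WT at 22 °C and 87.6, 189.9, 188 and 208 CPM in KO at 22 °C. At 22 °C the genotypes were apart. KO libraries there were below all libraries at 30 °C, except that WT library 4 at 30 °C lay below KO library 4. The interaction was -1.95 (SE 0.374, adjusted p = 0.0152). The call was lost with the replicate number as a block (adjusted p = 0.0526), without the 5 libraries over 0.1% skeletal muscle counts (0.0854) and with the clock covariate (0.521). With those last 2 settings the called members numbered 1 and 1 in the glycolysis list and 2 and 1 in the glycogen list.

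Genes by which pyruvate enters the mitochondrion were among those called in the TCA cycle and pyruvate dehydrogenase list, in which 12 of 31 genes were called (38.7%), all less upward in KO. In WT 26 rose and in KO 15 rose, with medians of 0.62 and 0.23. Pdhb, a subunit of the first enzyme of pyruvate dehydrogenase, was at 279, 334, 399 and 297 CPM in WT at 30 °C, 340.2, 296, 313 and 344 CPM in KO at 30 °C, 1322, 1381, 977 and 1019.8 CPM in WT at 22 °C and 419.8, 509, 501 and 511 CPM in KO at 22 °C. Every KO library at 22 °C was above all 8 at 30 °C and below every WT library at 22 °C. The interaction was -1.26 (SE 0.181, adjusted p = 0.00117). Mpc1, a subunit of the mitochondrial pyruvate carrier, had responses of 1.71 and 0.85 (interaction -0.86), and Pdha1 0.98 and 0.17 (interaction -0.81). Pdk1, a kinase that switches pyruvate dehydrogenase off, moved the same way as its target. Its levels at 22 °C were 205, 164, 176 and 181 CPM in WT and 64.1, 79.9, 80.9 and 83.6 CPM in KO, the latter overlapping both groups at 30 °C. The interaction was -1.15 (SE 0.144, adjusted p = 0.000429). Of the 31 genes 8 met the definition of kept, among them Cs, citrate synthase (0.47 in WT and 0.22 in KO), and Mdh2, malate dehydrogenase (0.83 and 0.44). Both were named after their values were seen. Their interaction intervals, -0.49 to -0.02 and -0.73 to -0.05, lie below 0, so kept does not mean an equal response here. With 1 library left out 6 to 17 members were called. With the clock covariate the number was 1, and without the 5 libraries over 0.1% skeletal muscle counts 1.

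Respiratory chain and proteasome genes moved by smaller amounts. Of 71 nuclear-encoded oxidative phosphorylation genes 5 were called (7.04%), all less upward in KO, although 70 of 71 estimates were negative. The median was -0.45, and -0.29 without WT library 2 at 22 °C. In WT 69 rose (median 0.73) and in KO 27 (median 0.27), and 24 were kept. Ndufa10 of complex I had a response of 0.77 in WT and 0.14 in KO (interaction -0.62, adjusted p = 0.0222), and Cox6a1 of complex IV had 1.15 and 0.40. None of the 8 mitochondrially encoded genes tested was called. The number called in the nuclear-encoded list was 0 to 35 with 1 library left out, so single members are not resolved. Its share of counts in WT at 22 °C was 5.16%, 6.85%, 4.84% and 4.45%, with WT library 2 the highest, and mitochondrially encoded genes took 12.8% of counts in that library and 18.9% to 19.5% in the others of its group. Of 32 proteasome subunits 5 were called (15.6%) and all 32 estimates were negative (median -0.37). In WT 31 rose and in KO 10. Psmd14, the deubiquitinase of the proteasome lid, was at 79.7, 98.4, 78.1 and 78.7 CPM in WT and 52.3, 51.7, 53.9 and 52 CPM in KO at 22 °C, without overlap (interaction -0.62, adjusted p = 0.00724). In the glutathione and antioxidant enzymes list 4 of 24 were called, all less upward in KO, among them Gsta4 (1.22 in WT and 0.32 in KO). With 1 library left out the numbers were 1 to 11 in the proteasome list and 0 to 8 in the antioxidant list.

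**Figure D3:**
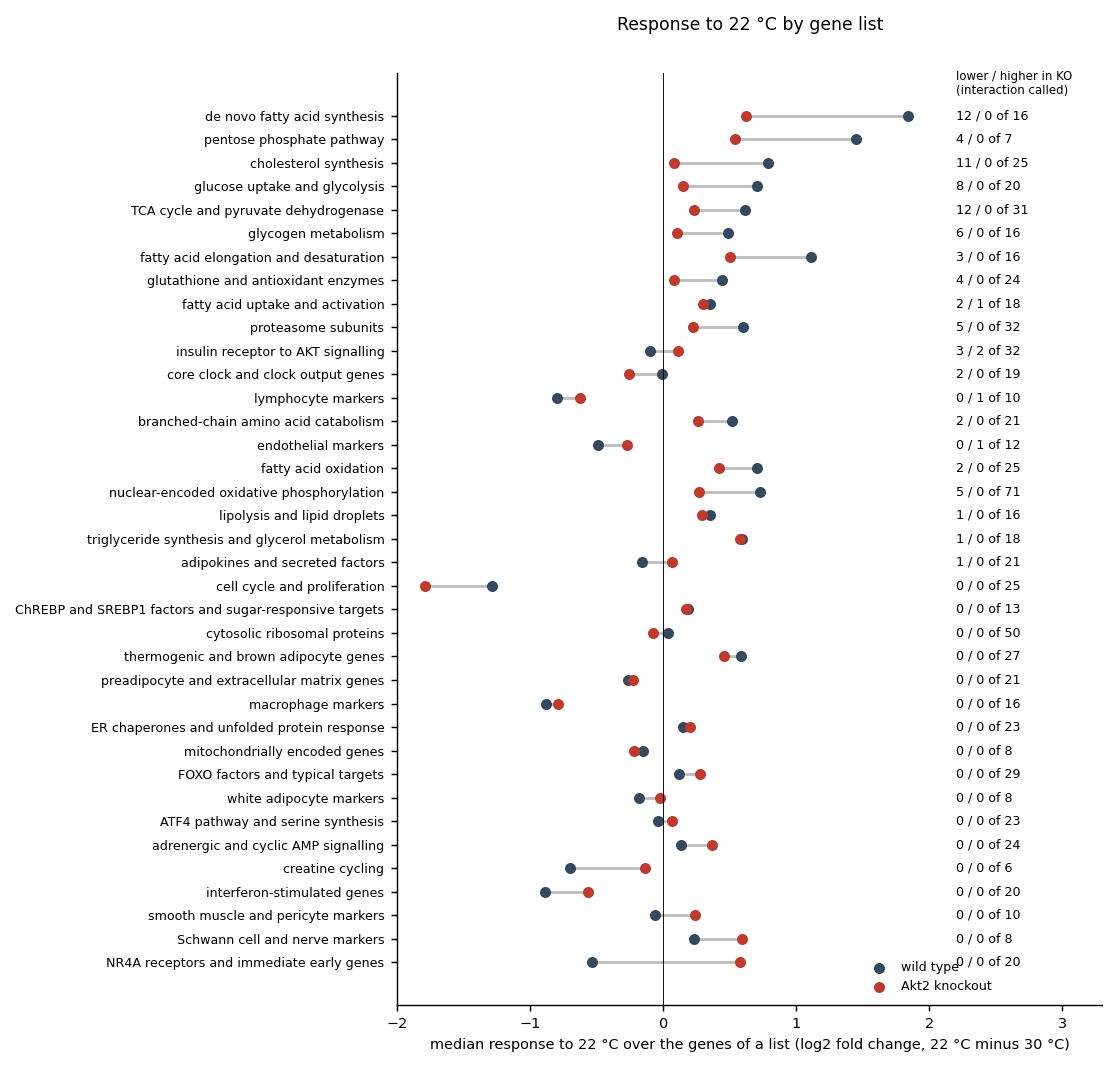
Median response to 22 °C (log2 fold change) over the genes of each of 37 lists, in WT (dark) and KO (red); the numbers at the right give members whose interaction was called lower and higher in KO, of the members tested. The list of skeletal muscle markers is left out, its medians being -2.57 and 0.58. The gap between the genotypes is widest at the top, for fatty acid synthesis and the pentose phosphate pathway among lists with calls; the wide gap of immediate early genes at the bottom came without any call, and its median interaction changed sign without KO library 1 at 22 °C.

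Signalling genes close to AKT2 included 2 reversals, Sgk2 and Phlda3. In the list of insulin receptor to AKT signalling 5 of 32 genes were called (15.6%), 3 less and 2 more upward in KO. Sgk2, a kinase of the AKT-related SGK family (ENSMUSG00000017868, chromosome 2, 162987330 to 163014127, plus strand), was at 4.64, 3.67, 4.49 and 7.74 CPM in WT at 30 °C, 6.57, 10.6, 10.9 and 11.1 CPM in KO at 30 °C, 1.97, 1.37, 0.563 and 0.523 CPM in WT at 22 °C and 27.9, 23.7, 17.6 and 19.5 CPM in KO at 22 °C. It fell at 22 °C in WT and rose in KO, and the groups at 22 °C were far apart without overlap. The responses were -2.19 and 1.18, and the interaction of 3.37 (SE 0.474, adjusted p = 0.00125) was lost with the clock covariate (adjusted p = 0.155). Phlda3, whose protein competes with AKT for membrane lipids, was at 343, 347, 371 and 342 CPM in WT at 30 °C, 399.5, 297, 416 and 346 CPM in KO at 30 °C, 367, 628, 474 and 529 CPM in WT at 22 °C and 203, 184, 178 and 207 CPM in KO at 22 °C. KO libraries at 22 °C were the lowest of all 16, and WT library 1 at 22 °C lay within the range of WT at 30 °C. Its responses were 0.51 and -0.92 (interaction -1.43, SE 0.191, adjusted p = 0.000651), and it was called under all 26 alternative settings. Akt1, the other main isoform, had an interaction of 0.21 that did not pass (95% interval -0.04 to 0.46, adjusted p = 0.326). It was called higher in KO at 22 °C (0.37, adjusted p = 0.00745 by edgeR). Mtor, a kinase that AKT activates, rose in both genotypes, by 1.08 and 0.37 (interaction -0.71, adjusted p = 0.0204). Irs2, an adaptor of the insulin receptor, named after its values were seen, had responses of -0.65 in WT and 1.16 in KO and was not called (interaction 1.81, SE 0.807, adjusted p = 0.224). None of 29 FOXO factors and typical targets was called, which is near the 3.07% of all genes called.

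Of the 35 reversed genes, 27 rose in WT and fell in KO, and 8 did the opposite. Sorcs2, a sorting receptor of the VPS10 family (ENSMUSG00000029093, chromosome 5, 36017180 to 36398139, minus strand), was at 27.3, 32, 44.9 and 32.2 CPM in WT at 30 °C, 22.3, 30.3, 29.6 and 22.5 CPM in KO at 30 °C, 104, 80.1, 93.8 and 191 CPM in WT at 22 °C and 14.4, 10.2, 13.2 and 15.6 CPM in KO at 22 °C. Its WT levels at 22 °C were the highest and its KO levels there the lowest of the 16 libraries. The interaction of -2.75 (SE 0.351, adjusted p = 0.000651) was lost without the 5 libraries over 0.1% skeletal muscle counts (adjusted p = 0.0767). The kinase gene Sbk1 had responses of 0.83 and -0.86, Pqlc3 0.61 and -0.79, the pyrophosphate and ATP exporter Ank 0.78 and -0.53, and Myo5b, a motor of vesicle transport, 0.54 and -0.85. These 4 genes were called under all 26 alternative settings.

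The widest interactions among called genes with a mean log2 CPM of at least 2 also included genes of low level. Adprhl1 was at 12 to 22.2 CPM in WT at 22 °C and 0.267 to 1.84 CPM in KO. At 30 °C it was at 0.0576 to 0.956 CPM over 8 libraries, so its interaction of -4.31 (SE 1.06) has an uncertain size. Ttc25 was at 51.3, 28.4, 28.1 and 20.5 CPM in WT and 3.27, 2.63, 4.08 and 3.38 CPM in KO at 22 °C (interaction -2.85). Igha, the immunoglobulin A heavy chain and a plasma cell product, was at 1.92, 0.304, 0.188 and 1.1 CPM in WT and 2.11, 6.67, 10.7 and 4.99 CPM in KO at 22 °C, against 11 to 42.9 and 8.97 to 16.9 CPM at 30 °C. The groups at 22 °C did not overlap, and the interaction of 3.55 had an adjusted p of 0.0495. The call held in only 3 of the 16 fits with 1 library left out and in 3 of the 10 other settings (adjusted p up to 0.489). It was the only called gene of the 10 lymphocyte markers tested.

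**Figure D4:**
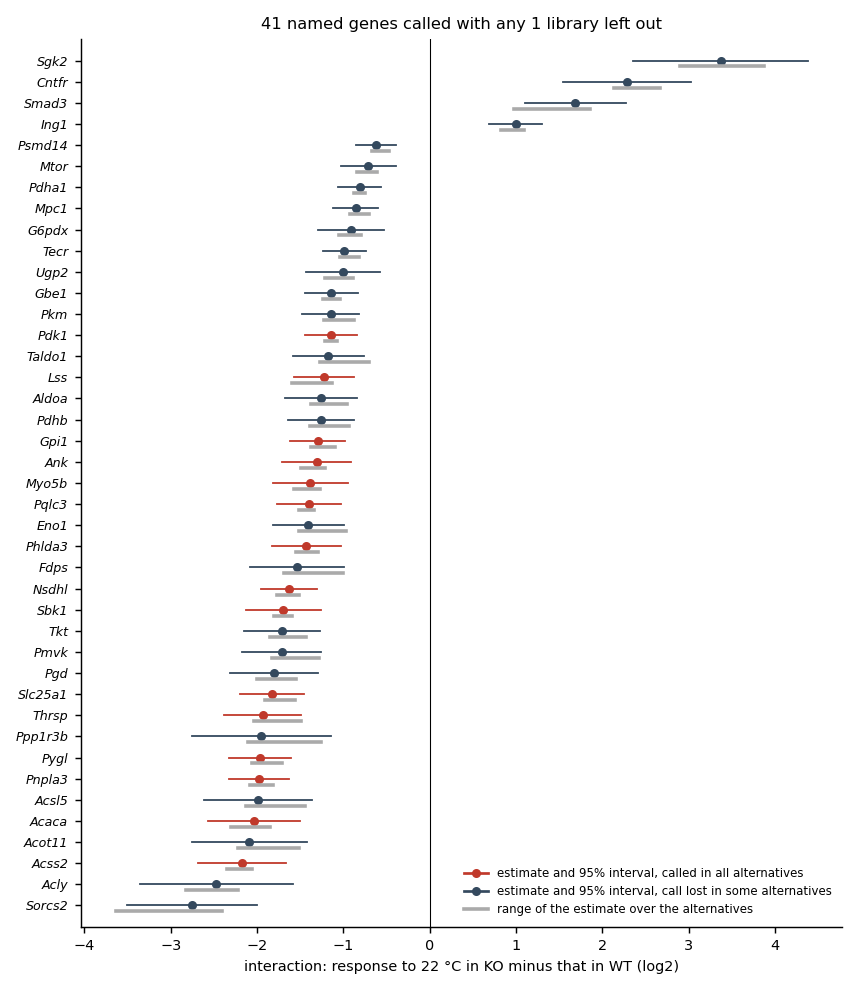
Interaction (log2, KO response minus WT response; points) with 95% intervals for 41 named genes whose call held with any 1 library left out; grey bars give the range of the estimate over 26 alternative settings. Red marks the 15 genes called in all of them. In 37 of the 41 genes the estimate is negative.

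None of 27 thermogenic and brown adipocyte genes was called, with a median interaction of -0.03 (-0.20 to 0.04 with 1 library left out) and median responses of 0.58 in WT and 0.46 in KO. With 3.07% of all genes called, no call among 27 genes is near that share. In WT 16 rose and in KO 13, and 7 met the definition of kept. Ucp1 (ENSMUSG00000031710, chromosome 8, 83290352 to 83298452, plus strand), whose promoter also drives the Cre, was at 1412, 1473, 1569.6 and 1616 CPM in WT at 30 °C, 1966, 1861, 1478 and 1837 CPM in KO at 30 °C, 8719, 7831, 4399 and 3764 CPM in WT at 22 °C and 4275, 7868, 7762 and 8756 CPM in KO at 22 °C. At 22 °C the genotypes overlapped, with WT libraries 3 and 4 and KO library 1 about as low as each other. The responses were 2.02 and 2.00, and the interaction was -0.02 (95% interval -0.77 to 0.73). Irf4, a factor that works with the coactivator PGC-1α in brown fat, was at 11.3 to 15.4 CPM in WT and 11.7 to 19.5 CPM in KO at 30 °C, and at 38.6 to 67.4 and 36.7 to 78.3 CPM at 22 °C (interaction -0.25, 95% interval -0.94 to 0.44). Dio2, which activates thyroid hormone, was at 24.8, 5.04, 12.1 and 12 CPM in WT at 30 °C, 19.5, 21.9, 15.4 and 26.1 CPM in KO at 30 °C, 353, 204, 93.9 and 181 CPM in WT at 22 °C and 379.9, 511, 373 and 530.3 CPM in KO at 22 °C. The rise was called in both genotypes (3.94 and 4.43), and the interval of the interaction, -0.81 to 1.78, reaches outside the bounds for kept. Ppargc1a, which encodes PGC-1α, was higher in every KO library at 22 °C (134, 149, 156 and 282 CPM) than in WT (101, 79.6, 58.5 and 84.1 CPM). Its KO effect at 22 °C was called (1.16, adjusted p = 0.00423 by edgeR), and its interaction of 1.11 did not pass (SE 0.327, adjusted p = 0.079). Glycerol kinase Gk had responses of 2.46 and 3.43 (adjusted p = 0.214 for the interaction) and was called higher in KO at 22 °C (1.06, adjusted p = 0.0276 by edgeR). Adrb3, the beta-3 adrenergic receptor, had 1.35 and 0.62 (interaction -0.73, adjusted p = 0.186) and was called lower in KO at 22 °C (-1.01, adjusted p = 0.00593 by edgeR). These last 4 genes were named after their values were seen.

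**Figure D5:**
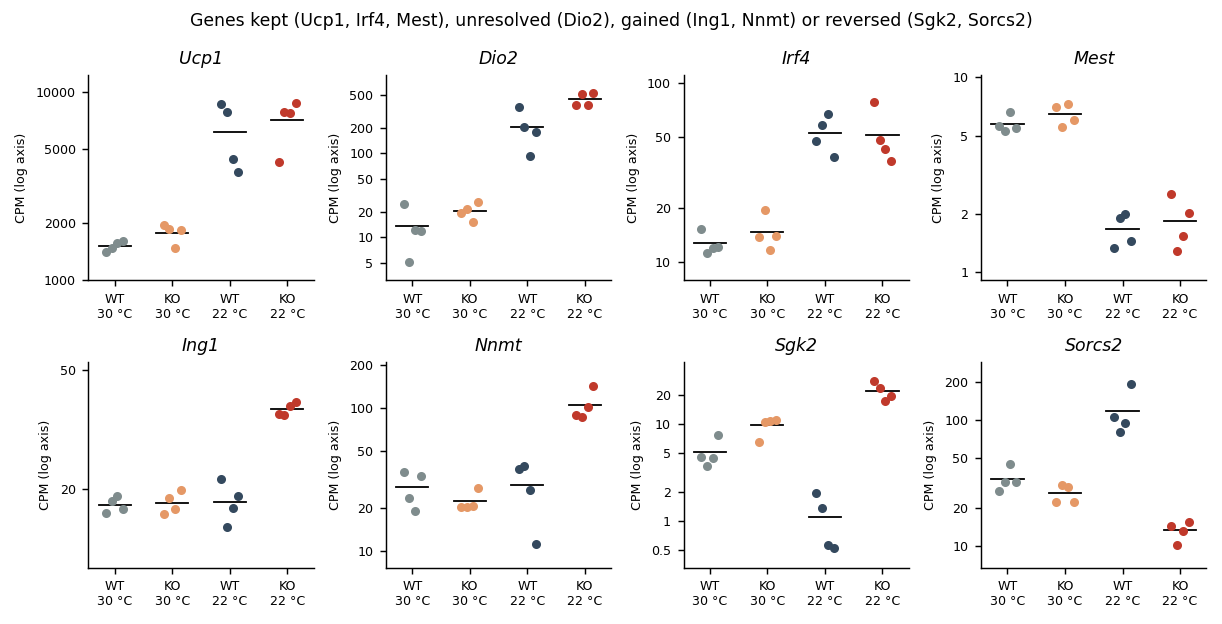
Levels of 8 genes in each library (CPM, log axis; points are libraries, lines are means of 4), by genotype and temperature. Ucp1, Dio2 and Irf4 rose and Mest fell in both genotypes; Ing1 and Nnmt stand apart in the 4 KO libraries at 22 °C, and Sgk2 and Sorcs2 moved in opposite directions in the 2 genotypes.

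Among the largest kept responses were both increases and decreases. Ackr3, a scavenger receptor for the chemokine CXCL12, rose by 2.02 in WT and 2.23 in KO (interaction 95% interval -0.18 to 0.60). Cars2, the mitochondrial cysteinyl-tRNA synthetase, rose by 1.62 and 1.98, Ppp1r1a, an inhibitor of protein phosphatase 1, by 2.38 and 2.02, and the histone gene Hist1h2bc by 2.21 and 1.70. Tusc3, an oligosaccharyltransferase subunit, had the largest kept decrease, -2.94 in WT and -2.78 in KO. Its levels were 106 to 160.5 CPM in WT and 124 to 185 CPM in KO at 30 °C, and 14.7 to 19.4 and 18.5 to 23.9 CPM at 22 °C. Mest, an imprinted gene that follows fat cell size, was at 5.59, 5.27, 6.62 and 5.5 CPM in WT at 30 °C, 6.99, 5.56, 7.25 and 5.99 CPM in KO at 30 °C, 1.33, 1.9, 2 and 1.45 CPM in WT at 22 °C and 2.52, 1.29, 1.54 and 2.02 CPM in KO at 22 °C. The 2 temperatures did not overlap in either genotype, and the genotypes overlapped at each temperature. Its responses were -1.79 and -1.80 (interaction -0.02, 95% interval -0.64 to 0.60). Impdh1, an enzyme of guanine nucleotide synthesis, had -1.95 and -1.85, Nt5dc2 -2.50 and -2.33, Zfr2 -1.94 and -1.95, and Cfap54 -1.66 and -1.63. Ucp2, a mitochondrial carrier related to UCP1 that was called in KO against WT at 30 °C, is also in the kept class, with responses of -1.14 and -1.03, so its KO effect was 0.62 at 30 °C and 0.72 at 22 °C.

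The fall of proliferation genes at 22 °C was present in both genotypes. Of 25 genes tested 18 fell in WT and 22 in KO, with medians of -1.29 and -1.79, and none was called in the interaction. Mcm3, of the replicative helicase, had -0.92 and -0.75, and Pcna, the clamp of DNA polymerase, -0.38 and -0.18, the latter not called in KO. Of 16 macrophage markers 11 fell in WT and 9 in KO, with medians of -0.88 and -0.79 and no interaction call. Lyz2, lysozyme, had -0.82 and -1.02. In the list of interferon-stimulated genes 17 of 20 fell in WT and 6 in KO, with no interaction call. Of the 20 estimates 18 were positive (median 0.34), so the response was mostly less downward in KO. Unlike most of that list, Bst2, an interferon-induced membrane protein, had equal responses and was kept (-0.66 and -0.66).

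Gained responses went in both directions. Of the 88 genes, 40 were more upward and 48 less upward in KO. Ing1, a reader of methylated histone H3 in deacetylase complexes (ENSMUSG00000045969, chromosome 8, 11555571 to 11563251, plus strand), was at 16.6, 18.2, 18.9 and 17.2 CPM in WT at 30 °C, 16.5, 18.6, 17.1 and 19.8 CPM in KO at 30 °C, 21.5, 14.9, 17.3 and 18.9 CPM in WT at 22 °C and 35.6, 35.4, 37.7 and 38.9 CPM in KO at 22 °C. The 4 KO libraries at 22 °C stood above all 12 others, which overlapped. The response was 0.04 in WT and 1.03 in KO (interaction 1.00, SE 0.144, adjusted p = 0.0012), and the call was lost without the 5 libraries over 0.1% skeletal muscle counts (0.0907) and with the clock covariate (0.205). Smad3, which carries signals of transforming growth factor beta, was at 28.8, 35, 31 and 32.2 CPM in WT at 30 °C, 24, 32.3, 33.7 and 27.1 CPM in KO at 30 °C, 23.4, 18.4, 22.6 and 32.8 CPM in WT at 22 °C and 98.3, 56.9, 53.3 and 79.9 CPM in KO at 22 °C. KO library 1 at 22 °C, which had the most skeletal muscle counts, was the highest. Without it the adjusted p was 0.00227, and with all libraries the interaction was 1.69 (SE 0.275, adjusted p = 0.00369). The call was lost without the 5 libraries over 0.1% skeletal muscle counts (1.36, adjusted p = 0.107) and with the clock covariate (0.98, adjusted p = 0.431). Nnmt, which methylates nicotinamide (ENSMUSG00000032271, chromosome 9, 48591877 to 48605153, minus strand), was at 35.2, 23.3, 18.9 and 33.3 CPM in WT at 30 °C, 20.3, 20.1, 20.6 and 27.5 CPM in KO at 30 °C, 37.5, 38.9, 26.6 and 11.2 CPM in WT at 22 °C and 88.8, 86.1, 100.4 and 142 CPM in KO at 22 °C. It was higher in each KO library at 22 °C than in any other library, with a response of 2.23 in KO and 0.05 in WT. Its interaction of 2.19 (adjusted p = 0.0236) was lost without any of 5 libraries, WT 1 or 4 or KO 1 or 3 at 30 °C, or KO 4 at 22 °C. The call held in 6 of the 10 other settings, and the adjusted p reached 0.357 over all 26 alternatives. Pon1, a paraoxonase, had responses of -0.27 and 1.08.

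Lpl, the lipase that releases fatty acids from circulating lipoproteins, was at 3561, 2900.5, 2898 and 3238 CPM in WT at 30 °C, 3476, 3645, 3297 and 3288 CPM in KO at 30 °C, 4419, 3527, 3766 and 3072 CPM in WT at 22 °C and 5162, 7506, 7466 and 7515 CPM in KO at 22 °C. All KO libraries at 22 °C were above all others, with KO library 1 the lowest of them. The response was 0.23 in WT and 1.01 in KO (interaction 0.78, SE 0.18, adjusted p = 0.0311). The call held in 6 of the 16 fits with 1 library left out, with estimates of 0.70 to 0.90. It was lost with the replicate number as a block (0.0686), without the 5 libraries over 0.1% skeletal muscle counts (0.125) and with the clock covariate (0.125). The 2 called genes in the other direction in the list of fatty acid uptake and activation were Acsl5 and Fabp5 (interaction -0.82), a fatty acid binding protein. Genes gained as decreases included Dbp, a clock output factor, which was at 13.6, 24.1, 16.1 and 20.1 CPM in WT at 30 °C, 22.9, 15.9, 9.74 and 9.8 CPM in KO at 30 °C, 29.8, 35.4, 26.1 and 11.1 CPM in WT at 22 °C and 3.06, 5.45, 4.14 and 4.51 CPM in KO at 22 °C. KO at 22 °C was below every other library, and the interaction was -2.22 (adjusted p = 0.0311). The call held in 7 of the 16 fits with 1 library left out. It was lost without a filter (0.0673), without the 5 libraries over 0.1% skeletal muscle counts (0.291) and with the clock covariate, of which Dbp itself is a part (-0.08, adjusted p = 0.987). In all, 2 of 19 clock genes were called (10.5%, against 3.07% of all genes). Arntl, which peaks when Dbp is low and was named after its values were seen, was higher in KO at 22 °C (25.4 to 34.2 CPM) than in any other library, with an interaction of 0.76 that did not pass (adjusted p = 0.0719). The time of day of tissue collection is not stated in the sources used here. Pm20d1, a secreted enzyme that makes N-acyl amino acids, fell in KO (-0.20 in WT and -0.94 in KO). In the enlarged class Peg3, an imprinted zinc-finger gene named after its values were seen, rose by 0.87 in WT and 2.17 in KO.

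Responses that went down in WT were reduced in 53 genes. Cntfr, a receptor subunit for ciliary neurotrophic factor, was at 61.9, 50.8, 45.7 and 68 CPM in WT at 30 °C, 44.1, 56.8, 58.4 and 77.6 CPM in KO at 30 °C, 16.4, 12.8, 7.44 and 8.19 CPM in WT at 22 °C and 40.3, 63.6, 64.7 and 60.9 CPM in KO at 22 °C. WT levels at 22 °C were below every other library, and KO levels there overlapped those at 30 °C. The response was -2.33 in WT and -0.05 in KO (interaction 2.28, SE 0.345, adjusted p = 0.00267), and the call was lost without the 5 libraries over 0.1% skeletal muscle counts (0.0556) and with the clock covariate (0.119). Kctd12 and Sgsm2, named after their values were seen, varied less between libraries. Kctd12 was at 57.6, 57.8, 58.3 and 57.9 CPM in WT at 30 °C, 52.2, 56.9, 59.3 and 61.2 CPM in KO at 30 °C, 20.9, 16.8, 16 and 20.3 CPM in WT at 22 °C and 35.7, 34.7, 38.2 and 34.8 CPM in KO at 22 °C, with KO libraries at 22 °C in between (interaction 0.96, adjusted p = 0.000445). Sgsm2, a regulator of RAB GTPases, had -1.27 in WT and -0.06 in KO, and its call held under all 26 alternative settings. The homeobox gene Prrx1 had -1.08 and 0.26, and Mpp3 -1.64 and -0.04. Cldn1, a tight junction protein, was called as reduced with responses of -0.95 and 0.76, the latter not called.

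Support for single calls was uneven. Of the 433 genes, 133 were called in each of the 16 fits with 1 library left out, 113 of them less upward in KO. Of the genes described above, the calls of Fasn, Mpp3, Igha, Pon1, Cldn1, Cox6a1, Adprhl1, Fabp5, Pm20d1, Lpl, Prrx1 and Dbp held in 2 to 7 of these fits. Those of Ndufa10, Hsd17b12, Ttc25 and Peg3, and of Vwf below, held in 8 to 10. In all 26 alternative settings 20 of the 433 were called, 19 of them less upward in KO. Among them were Pnpla3, Pygl, Nsdhl, Slc25a1, Thrsp, Acss2, Gpi1, Sbk1, Pqlc3, Pdk1, Acaca, Phlda3, Lss, Ank, Myo5b and Sgsm2, and 3 further genes named after their values were seen, Tmem120b, Fam57b and Slc38a10. Fam57b, whose protein is linked to ceramide synthesis, had responses of 2.67 and 0.74, Tmem120b, a nuclear envelope protein of fat cells, 1.47 and 0.38, and the amino acid transporter Slc38a10 1.03 and 0.00. Without the 5 libraries over 0.1% skeletal muscle counts 34 genes were called, all among the 433, and with the clock covariate 31, of which 30 were. All 433 kept their sign in both fits, which use libraries that the calls came from. Leaving out KO library 1 at 22 °C alone, the one with the most such counts, left 389 calls, 305 of them among the 433.

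Several lists had no interaction call. With 3.07% of all genes called, no call in lists of these sizes is near that share, also for the lists above. In NR4A receptors and immediate early genes 19 of 20 estimates were positive with a median of 0.72. The share of counts on this list was 0.176%, 0.064%, 0.0452% and 0.0629% in KO at 22 °C, with library 1, the one with the most skeletal muscle counts, apart from the other 3. Without that library the median was -0.15, and with the clock covariate -0.20. Dusp1, a phosphatase induced early after stimulation, had an interval of -0.56 to 1.92. The 24 adrenergic and cyclic AMP signalling genes, the 23 genes of the ATF4 pathway, the 23 ER chaperones, the 50 cytosolic ribosomal proteins, the 6 creatine cycling genes and the 21 preadipocyte and extracellular matrix genes had none. All 6 creatine cycling estimates were positive (median 0.31), as were 18 of the 24 adrenergic ones (median 0.30). Of the 50 ribosomal estimates 37 were negative (median -0.14). Among other cell types, 1 of 12 endothelial markers was called, Vwf, the clotting factor carrier, with responses of -0.42 and 0.44. None of 10 smooth muscle and pericyte, 8 Schwann cell and nerve or 8 white adipocyte markers was called. Estimates were positive for 11 of the 12 endothelial markers (median 0.24), 8 of the 10 smooth muscle and pericyte markers (0.34) and all 8 Schwann cell and nerve markers (0.45). The signs were not tested as sets. All 16 skeletal muscle markers had positive estimates (median 3.10, and 0.18 without KO library 1 at 22 °C) with wide intervals, such as -3.05 to 9.89 for Acta1, muscle actin, and none was called. Their part in the results above was not tested beyond leaving those libraries out.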

How the data were processed

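The deposited values are whole-number read counts by Ensembl gene for the 16 libraries, without normalisation. The submitters' processing notes list edgeR 3.14.0, FastQC 0.10.1 and STAR 2.4.2a, and the builds GRCm38 and mm10, without roles. The program that counted reads, the gene annotation and the strand setting are not stated in the sources used here, so reads of overlapping genes on opposite strands, and of near-identical copies, cannot be told apart. Symbols came from a reference table (37607 identifiers matched, 1317 not, with at most 0.131% of a library's counts). Coordinates are from GENCODE M21 on GRCm38. Promoter sequences are from RefSeq.

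Genes passing edgeR's filterByExpr (minimum count 10) were tested, 14103 of 24818 with a count, holding at least 99.9% of the counts of a library. All 16 libraries entered 1 quasi-likelihood model in edgeR 4.0.16 (R 4.3.3) with a term per group, TMM factors and robust dispersion, with 12 residual degrees of freedom. Adjusted p-values are Benjamini-Hochberg over all genes tested, and the threshold was 0.05. Log2 fold changes have SEs equal to the change divided by the square root of F. The typical biological coefficient of variation was 22.5%. The fit was also run on simulated counts with changes placed only in KO at 22 °C. Those counts held no temperature effect and no shift in skeletal muscle or clock genes, so that run does not bear on these. Replicate libraries differed by more than sampling noise.

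The members and the 38 gene lists were chosen with earlier results of these data known. Genes were named by this rule: 5 fixed genes (Akt2, Akt1, Mlxipl, Srebf1, Ucp1), up to 4 called members of each list by smallest p, the 10 largest called interactions in each direction with mean log2 CPM of at least 2 and no predicted-gene or pseudogene name, 6 kept genes in each direction with the largest mean response, up to 8 gained, reversed or enlarged genes by smallest p, and at most 2 members of the highest mean count of a list without a call. Named outside it, after their values were seen, were Dio2, Ppargc1a, Elovl3, Gk, Elmod2, Peg3, Kctd12, Arntl, Sgsm2, Tmem120b, Fam57b, Slc38a10, Hmgcs1, Mid1ip1, Cs, Mdh2, Irs2, Adrb3, Mlycd, Ucp2, Mreg, Kcnk2 and Akt2-ps. Brown adipocyte markers had a rule of their own. Some genes the rule names are not reported here.

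Alternatives were relative-log-expression factors, upper-quartile factors, TMM factors without the 50 most abundant genes, no filter, DESeq2 1.42.0, limma-voom (limma 3.58.1) weighted by library quality, a stricter filter (a mean count of 20 and CPM of 1 in 4 libraries), the replicate number as a block, leaving out the 5 libraries with over 0.1% skeletal muscle counts, a clock covariate (the log2 ratio of Dbp to Arntl), and each library left out in turn.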

Additional observations from a re-analysis of the deposited data

Results flagged for a closer look

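Among the 26 genes whose levels are given per library and 2 library measures, 112 groups of 4 were checked for 1 library far from the other 3, and 9 such libraries were found, against 5.6 from a rate of 1 in 20. Slc25a1 was at 166 CPM in WT library 3 at 30 °C, against 139 to 140.3 CPM in the other 3. Slc25a1 was at 160.1 CPM in KO library 1 at 30 °C, against 125 to 129.8 CPM in the other 3. Sgk2 was at 6.57 CPM in KO library 1 at 30 °C, against 10.6 to 11.1 CPM in the other 3. Phlda3 was at 371 CPM in WT library 3 at 30 °C, against 342 to 347 CPM in the other 3. Nnmt was at 27.5 CPM in KO library 4 at 30 °C, against 20.1 to 20.6 CPM in the other 3. Cntfr was at 40.3 CPM in KO library 1 at 22 °C, against 60.9 to 64.7 CPM in the other 3. Elmod2 was at 28.2 CPM in WT library 1 at 30 °C, against 33.8 to 34.7 CPM in the other 3. The share of counts on skeletal muscle markers was at 0.742% in KO library 1 at 22 °C, against 0.00671 to 0.0819% in the other 3. The share of counts on mitochondrial genes was at 12.8% in WT library 2 at 22 °C, against 18.9 to 19.5% in the other 3. KO library 1 appears in several of them, both at 30 °C and at 22 °C. The 2 libraries share only a number.

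The response to 22 °C differed between the genotypes by the interaction test (log2 difference, adjusted p under 0.05 by edgeR) in 20 of the 26 genes. It was less upward in KO for Pnpla3 (-1.98), Slc25a1 (-1.83), Thrsp (-1.94), Acss2 (-2.18), Acaca (-2.03), Fasn (-2.13), Nsdhl (-1.63), Lss (-1.23), Pygl (-1.96), Gpi1 (-1.30), Tkt (-1.71), Pdk1 (-1.15), Phlda3 (-1.43), Sorcs2 (-2.75) and Dbp (-2.22). It was more upward in KO for Sgk2 (3.37), Ing1 (1.00), Smad3 (1.69), Nnmt (2.19) and Cntfr (2.28).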

How the results depend on the processing

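The number of calls moved much between settings. All 433 interactions kept their sign in every setting in which the gene was tested (421 of them with the stricter filter). They were chosen in these same libraries, so kept signs were likely in advance. Some estimates shrank in other settings, from -2.22 to -0.08 for Dbp, -0.75 to -0.31 for Cox6a1 and 1.69 to 0.98 for Smad3. Others moved little, such as Pnpla3 at -2.08 to -1.82. Against 433 calls, there were 439, 364 and 431 with the other 3 scaling factors, 453 with the stricter filter and 255 without a filter, which tests 24818 genes. DESeq2 called 1076, with 419 of the 433 among them, and limma-voom 1050, with 426. The share less upward in KO was 76.0% in the reported fit, 73.9% to 78.1% with other factors and 64.6% with limma-voom. Reduced responses numbered 183 without a filter, 722 with DESeq2 and 570 with limma-voom, against 302, and gained responses 45, 251 and 333, against 88. Without the 5 libraries over 0.1% skeletal muscle counts there were 34 calls, 26 reduced, 3 gained and 725 kept, the last against 1861. With the clock covariate there were 31 calls, 20 reduced, 2 gained and 1223 kept. The median SE was 0.276 and 0.303 in these 2 fits, against 0.214. Fewer libraries entered the first, and in the second the covariate moves with the KO group at 22 °C. With 1 library left out there were 153 calls (without KO library 1 at 30 °C) to 1117 (without WT library 4 at 22 °C), 108 to 821 reduced and 21 to 218 gained. Calls also moved by over 1.5 times without any other library at 30 °C except KO library 2, and without KO libraries 2, 3 or 4 at 22 °C. With the replicate number as a block there were 198 calls, 133 reduced and 39 gained, and 191 of the 433 stayed called. The labels number samples from 1 to 4 in each group, but 12 of 24 same-numbered pairs had correlations over 0.1 (range -0.527 to 0.527) and 6 of 16 libraries correlated best with their own number, so the numbers were not taken to pair samples. Counting error is small beside the biological variation of 22.5%, except for genes near 1 CPM, such as Sgk2 in WT at 22 °C or Adprhl1 at 30 °C.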

Other observations

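Elmod2 (ENSMUSG00000035151, chromosome 8, 83312632 to 83332486, minus strand), which lies next to Ucp1 on chromosome 8 and was named after its values were seen, was at 28.2, 33.8, 34.7 and 34.3 CPM in WT at 30 °C, 166, 156, 180.4 and 59.8 CPM in KO at 30 °C, 39.3, 25.9, 37.1 and 48.5 CPM in WT at 22 °C and 286, 469, 469.5 and 509 CPM in KO at 22 °C. KO levels were above all WT levels at both temperatures, and KO library 4 at 30 °C was the lowest of the KO libraries. The KO effect was 2.10 (log2) at 30 °C and 3.52 at 22 °C. Its response to 22 °C was 0.20 in WT and 1.62 in KO, and the interaction of 1.42 did not pass (SE 0.407, adjusted p = 0.0742 by edgeR). Without KO library 4 at 30 °C it was 1.16. The transgene construct is not described in the sources used here.

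Mreg, which encodes melanoregulin and was also called at 30 °C, was higher in KO by 1.08 there and by 1.71 at 22 °C, with an interaction of 0.63 (adjusted p = 0.0796).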
